A study of Mus musculus with 14 samples.

Results

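To examine H3K27me3 over the coding parts of genes, the peaks of the deposited comparison between control and NeuID knockdown neurons were placed on the mouse gene annotation. A coding-exon peak was a listed peak under 2000 bp wide that covered coding sequence of a protein-coding gene and lay more than 3 kb from every annotated gene start, whatever the gene type. Of 23668 listed peaks, 1232 (5.21%) met this rule, and they fell in 967 genes. The rule used the position and width of the peaks, which the authors had called from these libraries, and no group mean.

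The neurons were wild-type primary hippocampal cultures from CD1 mouse embryos of embryonic day 17, prepared from litters of mixed sex, and both groups received LNA gapmers in lipid nanoparticles on day in vitro 7. Gapmers are antisense oligonucleotides that direct RNase H to a chosen RNA. The NeuID knockdown group received a gapmer against the long noncoding RNA NeuID and the control group received a negative control gapmer without a known target. In the labels each group has 6 ChIP libraries and 1 input library. They do not say whether libraries came from separate cultures, and the cultures were analysed in bulk, so a change within neurons and a change in the share of other cells cannot be told apart. The values available here were the authors' means for each group, without values per library. These means carry no spread between replicates, and the authors' own test results for each peak were not used here, so every difference below is an untested description of those means. The overall mean weighted the control by 0.545, the weight of 6 control and 5 knockdown libraries. This is not the 6 and 6 of the labels, so which libraries entered the means is not known. The total count of each library is not part of the deposited table used here, so the depth of each library is unknown.

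H3K27me3 is the trimethylation of lysine 27 of histone H3, which Polycomb repressive complex 2 deposits through its catalytic subunits EZH2 and EZH1. The mark lies mainly over silent genes, above all over CpG-rich promoters of developmental regulators, from which it can spread as broad domains into exons and introns. In neurons it covers regulators of other lineages. Coding exons are richer in CG dinucleotides than most introns, and some contain CpG islands of their own.

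The base composition of such exons is shown by 6 stretches of coding sequence. They come from the exon peak with the highest overall mean and, among strong peaks, from 2 of those with the largest falls and the 3 with the largest rises. Strong peaks were those whose overall mean reached 4 on the log2 scale (16 normalized reads). Each stretch is the run of 120 coding bases in the peak with the most CG dinucleotides. It is read 5′ to 3′ on the coding strand from GRCm38 (mm10), with CG in capitals.
Tbx3: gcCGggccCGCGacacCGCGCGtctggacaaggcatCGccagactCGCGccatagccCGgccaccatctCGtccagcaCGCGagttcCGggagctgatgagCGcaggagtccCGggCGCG
Tnfaip2: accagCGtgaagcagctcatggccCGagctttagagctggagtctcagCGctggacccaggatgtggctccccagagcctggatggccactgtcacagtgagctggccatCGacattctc
Isl1: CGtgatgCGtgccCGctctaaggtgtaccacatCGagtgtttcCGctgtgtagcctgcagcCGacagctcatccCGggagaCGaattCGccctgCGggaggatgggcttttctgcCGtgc
Jsrp1: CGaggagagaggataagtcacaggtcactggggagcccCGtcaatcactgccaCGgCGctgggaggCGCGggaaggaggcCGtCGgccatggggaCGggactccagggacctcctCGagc
Kirrel2: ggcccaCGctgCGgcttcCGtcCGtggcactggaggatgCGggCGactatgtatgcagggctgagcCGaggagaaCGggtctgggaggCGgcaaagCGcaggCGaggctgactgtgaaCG
Fam83h: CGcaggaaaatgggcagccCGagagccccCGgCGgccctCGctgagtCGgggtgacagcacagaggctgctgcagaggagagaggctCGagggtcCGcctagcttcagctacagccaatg
The Tbx3 stretch (chr5:119680560-119680679, plus strand) held 18 CG dinucleotides. That of Tnfaip2 (chr12:111448247-111448366, plus strand) held 4, and that of Isl1 (chr13:116305304-116305423, minus strand) held 11. The stretches of the peaks that were higher after knockdown held 10 in Jsrp1 (chr10:80808658-80808777, minus strand), 12 in Kirrel2 (chr7:30453412-30453531, minus strand) and 8 in Fam83h (chr15:76002303-76002422, minus strand). Since each run was picked for its CG count, these numbers are not compared between falls and rises. Over the whole peaks, the ratio of observed to expected CG ran from 0.133 (Prss16) to 0.768 (Vinac1) in the named peaks with the largest falls and from 0.156 (Ush1g) to 0.745 (Fcrlb) in those with the largest rises, and the ranges overlapped.

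The coding-exon peaks were mostly small. Their width had a median of 482.5 bp, from 181 to 1998 bp, and coding sequence made up a median of 31.9% of each peak. Their overall means, in log2 normalized reads, ranged from 1.37 to 6.07 around a median of 3.09. They lay between 3007 and 207920 bp from the nearest gene start, with a median of 10499 bp. CG dinucleotides occurred at a median of 0.337 of the frequency expected from the base composition, against 0.218 in all listed peaks, and the median GC content was 54.4% against 49.2%. Coding sequence itself differs from other sequence in both measures, so the contrast is not independent of the rule.

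The comparison of the groups asked whether H3K27me3 over coding exons differed after NeuID knockdown. It differed at many peaks and in both directions. A peak was counted as lower or higher when the knockdown mean differed from the control mean by more than 1 on the log2 scale. By this limit 227 coding-exon peaks (18.4%) were lower and 250 (20.3%) were higher, where 20.6% of all listed peaks were lower and 20.4% were higher. The shares of coding-exon peaks were thus near the background of all listed peaks. The median difference, knockdown minus control, was 0.02 over the coding-exon peaks and -0.02 over all listed peaks. The quartiles of the coding-exon peaks were -0.69 and 0.76. Summed over all coding-exon peaks, the knockdown means came to 99.9% of the control means, a ratio that the authors' normalization may set.

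**Figure D1:**
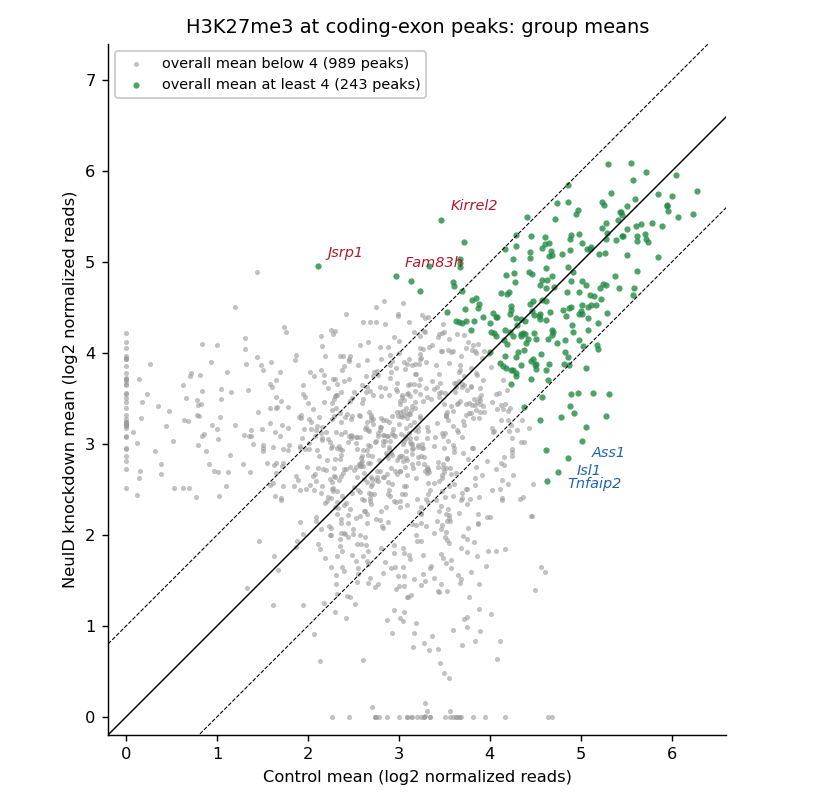
Control mean (x axis) against NeuID knockdown mean (y axis) of the 1232 coding-exon peaks, both in log2 normalized reads; green points are the 243 strong peaks (overall mean 4 or more), the solid line marks equal means and the dashed lines a log2 difference of 1. Points scatter widely to both sides at low means and lie closer to the line at high means, where Jsrp1, Kirrel2 and Fam83h stand above and Tnfaip2, Isl1 and Ass1 below.

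The exon peaks with the highest overall means lay mostly in regulators of development, and none of the 10 strongest differed by more than 1 between the groups. Tbx3, a T-box transcription factor of limb and mammary development, held 3 of the 10 strongest peaks. The first (chr5:119679569-119681555), over coding exon 7 of 8 in the longest coding transcript, had a control mean of 6.28 and a knockdown mean of 5.78. The second (chr5:119682445-119683986), over the last coding exon, had means of 6.23 and 5.53. The third (chr5:119677307-119679302), over coding exon 6, had means of 6.07 and 5.50. In each Tbx3 peak the knockdown mean was the lower one, by 0.50, 0.69 and 0.57 on the log2 scale.

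The other 7 of the strongest peaks lay in as many genes. Sim2, a transcription factor with a PAS domain, had means of 6.04 in the control and 5.96 in the knockdown. Cnpy1, a canopy family gene, had means of 6.00 and 5.72, and Tbx20, a T-box factor of the heart, had 5.71 and 6.00. Sp6, a zinc finger factor of the Sp family, had means of 5.55 and 6.10 over its single coding exon. Begain, which encodes a protein of the postsynaptic density, had 5.95 and 5.62. Runx1, a regulator of blood formation, had 5.95 and 5.62, and Pax9, a paired-box factor, had 5.85 and 5.75. Among the 10 strongest peaks the knockdown mean was higher only in Tbx20 (by 0.28) and Sp6 (by 0.54).

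Peaks that were both strong and different were fewer. Of the 243 strong coding-exon peaks, 20 were lower and 14 higher. This came to 8.23% and 5.76%, where 9.12% of the 3344 listed peaks of that strength were lower and 5.02% were higher. The median difference was -0.13 in these coding-exon peaks and -0.11 in all listed peaks of that strength, and 128 of the 243 (52.7%) lay within 0.5 of no difference. Since the overall mean weights the control more, this choice favours peaks that were higher in the control. With both groups weighted equally, 19 were lower and 15 higher.

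The strong peaks with the largest falls covered genes of unlike function. Tnfaip2, a gene induced by tumour necrosis factor, had a control mean of 4.75 and a knockdown mean of 2.69 over coding exon 5 of 11 (chr12:111447700-111448756), or 26.9 against 6.47 normalized reads. Isl1, a LIM homeodomain factor of motor neurons and heart, had 4.86 and 2.84 over coding exon 3 of 6 (chr13:116305038-116305791). The Tnfaip2 and Isl1 peaks had log2 differences of -2.06 and -2.02.

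The next falls were close in size. Ass1, argininosuccinate synthase of the urea cycle, had means of 5.02 in the control and 3.04 in the knockdown (chr2:31498090-31499428), a difference of -1.98. Syne3, which encodes nesprin-3 of the nuclear envelope, had 5.28 and 3.31 (chr12:104967163-104968663), a difference of -1.97. Prss16, a serine protease of the thymus, had 5.06 and 3.19 (chr13:22002824-22003778), a difference of -1.87. Otx2, a homeodomain factor of the forebrain and eye, had 5.31 and 3.55 (chr14:48659879-48661713), a difference of -1.76. Vinac1 had 4.61 and 2.94 over coding exon 3 of 7 (chr2:129038827-129039777), a difference of -1.67. Isl1 and Otx2 are regulators of development, and the other 5 of these genes are enzymes, structural genes and genes of other kinds.

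Among strong peaks with both means above 0, the largest rise was over the last coding exon of Jsrp1, which encodes a protein of the junctional sarcoplasmic reticulum in muscle. Its control mean was 2.11 and its knockdown mean 4.96 (chr10:80808657-80809214), or 4.33 against 31.1 normalized reads, a log2 difference of 2.84. Kirrel2, an adhesion molecule of the immunoglobulin family, had 3.46 and 5.47 over coding exon 7 of 15 (chr7:30453270-30454651), a difference of 2.01. Fam83h, a gene of tooth enamel formation, had 2.97 and 4.84 in a peak that was wholly coding (chr15:76002074-76002798), a difference of 1.88.

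Further rises lay in genes of several tissues. Ebf3, a transcription factor of the EBF family, had means of 3.13 in the control and 4.79 in the knockdown (chr7:137224792-137225680). Tll2, a metalloprotease of the tolloid family, had 3.33 and 4.96 (chr19:41088176-41089374). Ush1g, a scaffold protein of sensory hair cells, had 3.71 and 5.23 (chr11:115316085-115317509), but only 1 base of that peak was coding. Fcrlb, an Fc receptor-like gene of B cells, had 3.23 and 4.68 (chr1:170907264-170908262). Nr5a1, steroidogenic factor of the gonads and adrenal gland, had 3.67 and 5.04 (chr2:38707219-38708433). Their differences were 1.65, 1.63, 1.51, 1.45 and 1.36.

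**Figure D2:**
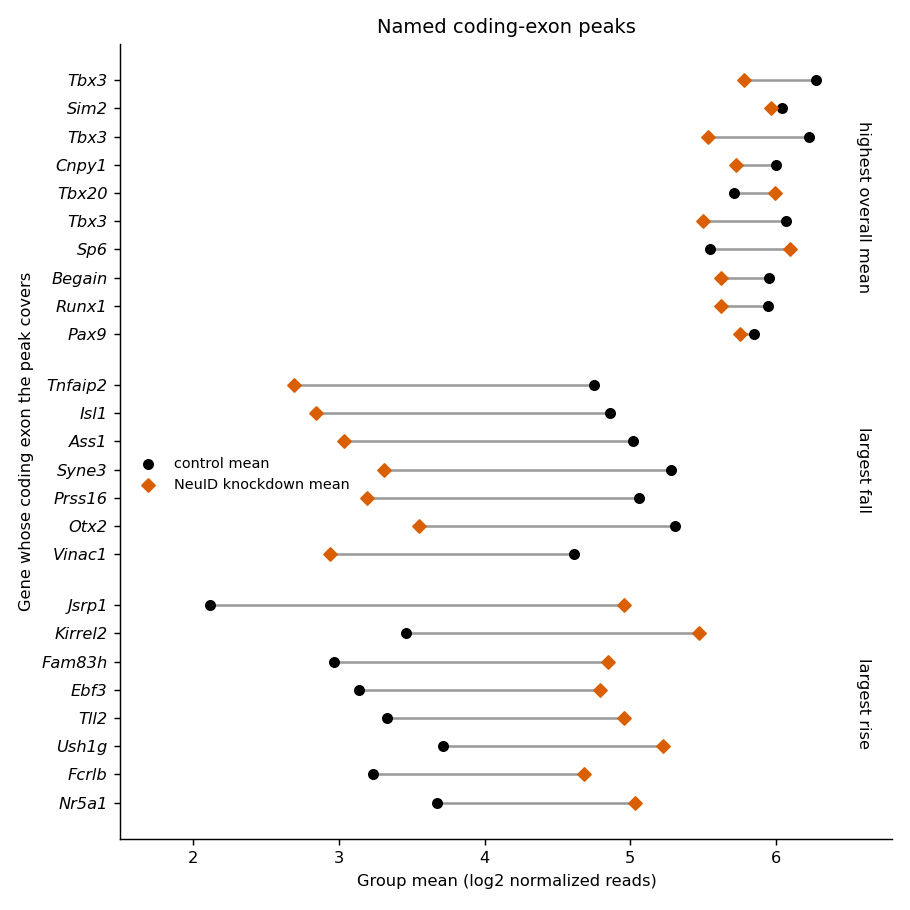
Group means in log2 normalized reads (x axis) for named coding-exon peaks (rows, by gene), control as black circles and NeuID knockdown as orange diamonds, without error bars because only group means were available. The 10 strongest peaks have close pairs between 5.50 and 6.28, whereas the control mean lies well to the right in the peaks with the largest falls and well to the left in those with the largest rises.

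Developmental transcription factors made up 97 of the coding-exon peaks (7.87%), in 61 genes, and 55 of the 243 strong ones (22.6%). Of the 97, 16 were lower (16.5%) and 14 higher (14.4%), with a median difference of -0.10. Among all listed peaks 20.6% were lower and 20.4% higher. Among the 55 strong peaks, 6 were lower and 4 higher, where 9.12% and 5.02% of all listed peaks of that strength were. Counts this small are not read against that background. The lower ones included Isl1, Otx2, Otx1, Pax5 and Tbx2, and the higher ones lay in Ebf3, Lhx6, Nkx6-3 and Barhl1. Otx1, Pax5, Tbx2, Lhx6, Nkx6-3 and Barhl1 are named here because they belong to these counts, and they were chosen after their values were seen. Otx1 had a control mean of 5.14 and a knockdown mean of 3.56, and Lhx6, a factor of cortical interneurons, had 3.67 and 4.95. The largest difference of the whole list among peaks with both means above 0 was in Tal1, a regulator of blood formation, at 1.19 in the control and 4.50 in the knockdown over its last coding exon. Hence homeodomain genes were found among both the lower and the higher strong peaks.

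The lists of genes of synapses and neuronal excitability each held fewer coding-exon peaks than the developmental transcription factors, with lower median overall means. Each of these lists also named fewer genes. Against all coding-exon peaks, the median overall mean was higher for neurotransmitter receptor and axon guidance genes. It was lower for channel and synaptic organiser genes. Neurotransmitter receptor genes had 15 peaks in 11 genes, with 2 lower, 2 higher and a median difference of -0.57. The strongest were over the last coding exons of the adrenergic receptor genes Adra1b (5.19 in the control, 4.33 in the knockdown) and Adra1d (5.08 and 4.38). The kainate receptor gene Grik4 had the largest difference, with means of 0.83 and 4.10. Potassium, sodium and calcium channel genes had 37 peaks in 27 genes, with 5 lower, 6 higher and a median difference of 0.29. The strongest channel peaks, in the potassium channel genes Kcnk3 (4.98 and 5.31) and Kcnh6 (4.44 and 5.11), had the higher mean after knockdown. The largest channel difference was in Trpv3, at 0.14 in the control and 3.72 in the knockdown.

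Synaptic organiser genes had 13 peaks, of which 3 were lower and 2 higher. The postsynaptic scaffold gene Shank1 had the strongest, a wholly coding peak of 1646 bp over coding exon 23 of 24 with means of 5.23 and 5.66. Tenm4, a teneurin, had means of 2.86 and 1.07. Axon guidance genes had 10 peaks, 4 lower and 1 higher. The strongest of them, over the first coding exon of Ntn1 (netrin 1), had means of 4.89 and 5.30, and Epha10 had 5.06 and 4.75. The largest guidance difference was in the semaphorin gene Sema6a, at 3.09 and 1.31. These lists hold too few peaks for their shares to be read against the background.

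Among genes of other tissues, muscle, heart and cilium genes had 56 coding-exon peaks in 37 genes, with 9 lower, 14 higher and a median difference of 0.04. The ryanodine receptor gene Ryr1 of skeletal muscle had means of 4.85 and 4.68 in its strongest peak and 3.84 and 4.61 in the next. Dnah8, a dynein heavy chain of cilia, had the largest difference, at 3.56 and 0.06. Matrix genes had 39 peaks in 30 genes, with 8 lower (20.5%) and 4 higher (10.3%). The metalloprotease genes Mmp28 and Mmp9 differed from each other. Mmp28 had 5.62 in the control and 5.29 in the knockdown, whereas Mmp9 had 1.44 and 4.89. Genes of Wnt, BMP, FGF, hedgehog and Notch signalling had 16 peaks in 11 genes, too few to be read against that background. Of these 16 peaks, 1 was lower and 0 were higher, with a median difference of -0.21. The strongest lay over the first coding exon of the growth factor gene Fgf20, with means of 5.23 and 5.38. Wnt10b held the next, with means of 5.11 and 5.16 over coding exon 4, and also the largest difference of that list, over coding exon 3 in the neighbouring peak, with 3.98 and 1.82.

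The remaining lists were small or balanced, and their counts are not read against the background of all listed peaks. Solute carrier genes had 30 peaks, 8 lower and 8 higher. Their strongest peak lay in Slc17a7, which encodes the vesicular glutamate transporter 1 of excitatory neurons, at 4.89 and 3.42. The glycine transporter gene Slc6a5 had 4.42 and 4.16 in its strongest peak and 3.46 and 0.59 in another. Zinc finger protein genes had 17 peaks (3 lower, 3 higher), led by Zfp64 (5.30 and 6.07) and Zfp385c (5.50 and 5.36), with the largest difference in Zfp503 (4.00 and 2.19). Keratin and other epithelial genes had 14 peaks (2 lower, 2 higher), led by the claudin gene Cldn10 (4.86 and 3.96). The G protein-coupled receptor list had 10 peaks (1 lower, 2 higher), led by Npffr1 (4.89 and 5.14) and Gpr153 (4.79 and 3.29). Cadherin genes had 10 peaks (1 lower, 2 higher). Cdh22 had the strongest cadherin peak (5.11 and 4.53), and Cdh5 of blood vessels had the largest difference (4.49 and 1.39). Olfactory, vomeronasal and taste receptor genes had 5 peaks, of which 1 was lower (Olfr1124, 3.00 and 1.44), and clustered protocadherins had 0.

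Cell type markers were checked by listed peaks within 5 kb of their gene starts. Of 20 neuron marker genes, 9 had such a peak, as did 5 of 20 astrocyte and radial glia markers, 12 of 18 oligodendrocyte lineage markers and 7 of 18 microglia and blood vessel markers. The share over all protein-coding genes is not given, so these counts are not compared between cell types. H3K27me3 does not measure expression, so the counts do not show which cells were present, and the part of other cells in the differences was not tested. Few markers held a coding-exon peak. Gfap of astrocytes had a control mean of 1.37 and a knockdown mean of 3.15, and Mag of oligodendrocytes had 3.57 and 1.64. Pecam1 of blood vessels had 2.82 and 3.26. Among 3 peaks in neuron markers, the 2 strongest were named by rule. Slc17a7 was lower (4.89 and 3.42), and Prox1 of dentate granule neurons had 2.92 and 2.90. The remaining peak had the higher mean after knockdown, so that 1 of the 3 was above and 0 were higher by the limit. The median difference of the 3 was -0.02, and so few peaks do not describe neuron markers as a group.

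Some genes held several coding-exon peaks. A single one was found in 796 genes and 2 or more in 171, and 51 genes had 3 or more. In 48 of these 51 the peaks of the same gene differed in sign. The other 3 genes were Tbx3, Sim2 and Arhgap36, in which every peak had the lower mean after knockdown. Over its 4 peaks Sim2 came to 121 control and 98.2 knockdown normalized reads, and over their 3 peaks Tbx3 came to 220 and 146 and the X-linked gene Arhgap36 to 56.6 and 34.1. These 3 genes were named after their values were seen.

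The genes with the most peaks showed how mixed the differences were within 1 gene. Sptbn4, which encodes a spectrin of the axon initial segment, had 10 peaks, of which 7 had the higher mean after knockdown. The 2 Sptbn4 peaks beyond the limit were both lower, one over coding exon 18 of 35 (2.13 in the control, 0.61 in the knockdown) and one over coding exon 27 (4.24 and 2.91). The strongest Sptbn4 peak, over coding exon 22, had 5.39 and 5.25. Summed over the gene, Sptbn4 had 170 normalized reads in the control and 192 in the knockdown.

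Tll2 had 7 peaks, all in the part of the gene far from its start. The 2 nearest the end of Tll2 were higher, with means of 3.33 and 4.96 over coding exon 19 of 21 and with a control mean listed at 0 and a knockdown mean of 3.71 over coding exon 18. The Tll2 peak over coding exon 7 was lower (4.12 and 2.79). Speg, a kinase gene of striated muscle, had 6 peaks. Its strongest peaks hardly differed, with 5.61 and 5.40 over coding exon 4 of 41, and 5.58 and 5.90 over coding exon 30. Toward the end of Speg, coding exon 35 was lower (3.68 and 1.86) and coding exon 39 higher (1.64 and 3.52).

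Sec31b, a gene of COPII vesicle coats, had 6 peaks that fell into an earlier and a later stretch. The 3 nearer its start had the higher mean after knockdown (1.59 and 3.66, 2.96 and 3.84, and 2.46 and 3.48). The 3 farther along had the lower one (4.07 and 1.83, 3.88 and 3.29, and 3.16 and 2.96). Summed over Sec31b, the control had 56.7 and the knockdown 59.1 normalized reads. Differences of opposite sign within the gene thus left its sum almost the same in both groups.

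With 5 peaks each followed Cfap65, Col6a3, Espn, Lgr5, Sim1 and Syne3. Syne3, already named for its fall over coding exon 3, had a rise over coding exon 2 in the neighbouring peak, from 0.18 in the control to 3.46 in the knockdown. Col6a3, a chain of collagen VI, had 3 peaks with differences of 0.05 to 0.24 and 2 lower ones farther along, at -1.24 and -1.18. In Lgr5, a receptor of stem cells, 4 of 5 peaks had the lower mean after knockdown, and none passed the limit. Sim1, a factor of the hypothalamus, had 5 strong peaks, whose differences ran from -0.71 to 0.83. Espn, an actin-bundling protein of hair cells, had 1 lower peak (4.25 and 3.07). Cfap65, a gene of sperm flagella, had 1 higher peak (3.26 and 4.42) and 1 lower one (4.16 and 2.85).

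**Figure D3:**
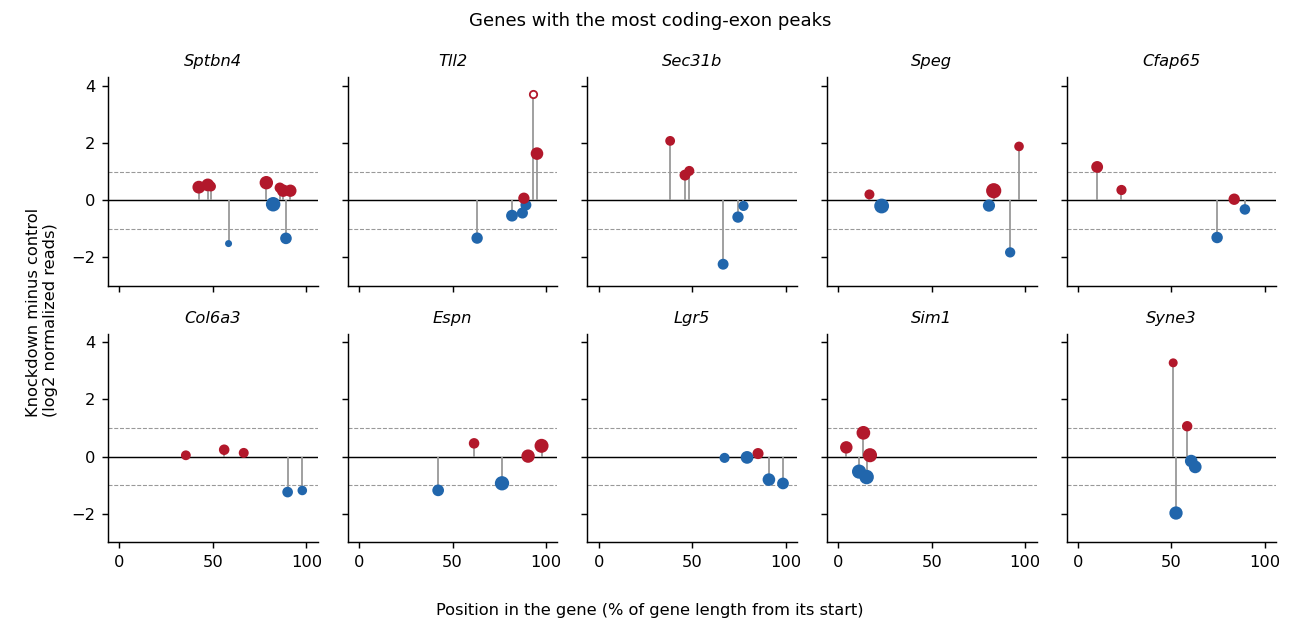
Difference of the group means, knockdown minus control in log2 normalized reads (y axis), for each coding-exon peak of the 10 genes with the most such peaks, against its position in the gene as a percentage of gene length (x axis); point size follows the overall mean, the open circle marks a peak with the control listed at 0 and dashed lines mark a difference of 1. Every gene shown has peaks on both sides of 0.

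Neighbouring peaks of 1 gene were then compared. Of 104 pairs of adjacent coding-exon peaks in the same gene with less than 1 kb between them, 48 had differences of the same sign. Among 23 pairs in which both peaks were strong, the count was 10. In Barhl1, a homeodomain factor of the cerebellum and spinal cord, a peak of 4.41 in the control and 5.50 in the knockdown (chr2:28908246-28909758) lay beside one of 5.78 and 5.43 (chr2:28910225-28911808). In Otx2 the lower peak named above lay between one of 4.79 and 5.09 and one of 5.74 and 5.22. Barhl1 was named here after its values were seen. Adjacent peaks share libraries, and this count is a description.

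Many of the genes also carried H3K27me3 at their start. Of the 967 genes, 365 (37.7%) had at least 1 listed peak within 3 kb of their own start, and in 87 of them the widest such peak reached 2 kb. Reads were summed over the peaks at the start and over the coding-exon peaks of each of these genes, with a mean listed at 0 taken as 1 read. The log2 ratio of knockdown to control had a median of -0.09 at the start and -0.05 over the exons. Across the 365 genes the Spearman correlation of the 2 ratios was 0.041, and it was 0.196 in the 122 genes with an average of at least 16 normalized reads at both places. Genes in these correlations share the same libraries and are not replicates. In Isl1 both places were lower, with 105 against 80.6 normalized reads at the start and 29.0 against 7.16 over the exon. In Tnfaip2 they differed in sign, with 46.9 against 77.6 at the start and 46.8 against 21.4 over the exons. Tal1 showed the opposite, with 164 against 130 at the start and 17.1 against 42.3 over the exons. Jsrp1 was higher at both, with 8.89 against 23.5 and 4.33 against 31.1.

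**Figure D4:**
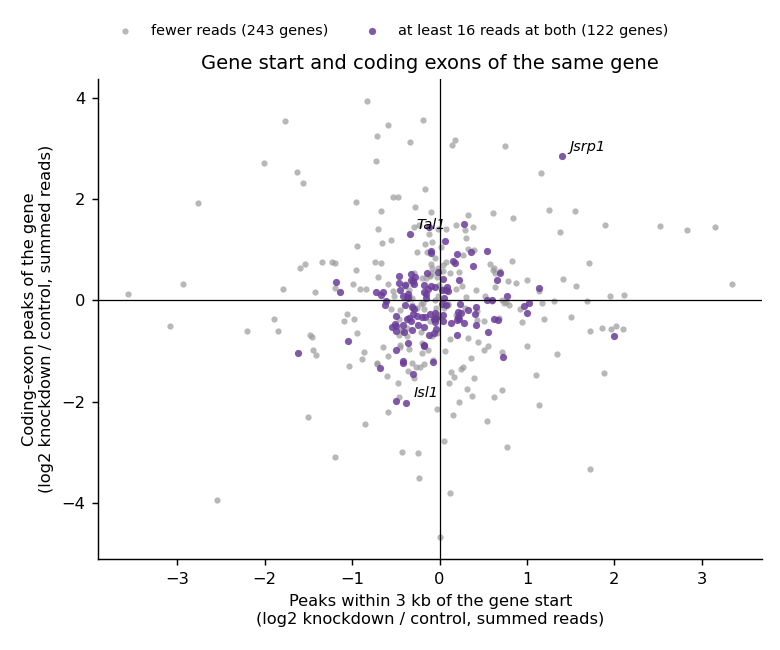
Log2 ratio of knockdown to control for the summed normalized reads of peaks within 3 kb of a gene's start (x axis) and of its coding-exon peaks (y axis), 1 point per gene for 365 genes; purple points are the 122 genes with an average of at least 16 normalized reads at both places. The points form a cloud around 0 with no clear slope, with Jsrp1 high on both axes, Isl1 low on both and Tal1 high over its exons only.

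Genes without a listed peak at their start held 703 of the coding-exon peaks. Of these, 137 were lower (19.5%) and 166 higher (23.6%), with a median difference of 0.05. Their overall means were low, with a median of 2.92. Genes with a peak at their start held 529, of which 90 were lower and 84 higher, with a median overall mean of 3.42.

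The position of the peak within the gene was examined next. Although all coding-exon peaks lay away from gene starts, 151 contained the annotated start of an alternative transcript. Of these 151, 36 were lower (23.8%) and 15 higher (9.93%), with a median difference of -0.30. Among the strong ones, Tnfaip2, Slc17a7 and Gpr153 were lower, whereas Rgs14 and Arhgap27, named after their values were seen, were higher. In all 2164 listed peaks that contained a transcript start, 270 were lower (12.5%) and 247 higher (11.4%), with a median difference of -0.03. These 2164 lay at a median of 0 bp from a gene start, with a median overall mean of 4.16 against 3.54 in the 151. The part of strength and position in that contrast was not tested. Of all listed peaks, 20.6% were lower and 20.4% higher. In the 100 peaks away from gene starts and under 2000 bp that contained a transcript start but no coding base, 19 were lower and 19 higher. Among the 56 strong coding-exon peaks with a transcript start inside, 5 were lower (8.93%) and 2 higher (3.57%), with a median difference of -0.29. In all 1190 listed peaks of that strength with a transcript start inside, 5.80% were lower and 3.19% higher, with a median difference of -0.06. Counts as small as 5 and 2 are not read against that background. In the 746 coding-exon peaks more than 3 kb from every transcript start, 126 were lower and 157 higher, with a median difference of 0.05. These groups of peaks were not tested against each other.

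Peaks over the last coding exon had more higher than lower values. Of 225 such peaks, 25 were lower (11.1%) and 51 higher (22.7%), with a median difference of 0.13, where 20.6% of all listed peaks were lower and 20.4% higher. In the 62 strong ones the median difference was -0.05, with 32 below and 30 above 0, while 2 were lower and 6 higher by the limit. Jsrp1, Fam83h, Fcrlb and Tal1 are examples of higher ones, and Tbx2 and Otud7a, named after their values were seen, were the 2 lower ones among strong peaks. Of 839 peaks over internal coding exons, 169 were lower (20.1%) and 177 higher (21.1%). Of 96 over first coding exons, 17 were lower and 12 higher. Peaks that were wholly coding numbered 96, of which 13 were lower and 22 higher, with a median difference of 0.20. Peaks with up to 25% coding sequence numbered 490, with 102 lower, 93 higher and a median difference of -0.03. These peaks also differed in strength and width. The wholly coding ones had a median overall mean of 2.93 and a median width of 411.5 bp, and those with little coding sequence had 3.22 and 540.5 bp, and the part of strength and width in these counts was not tested.

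**Figure D5:**
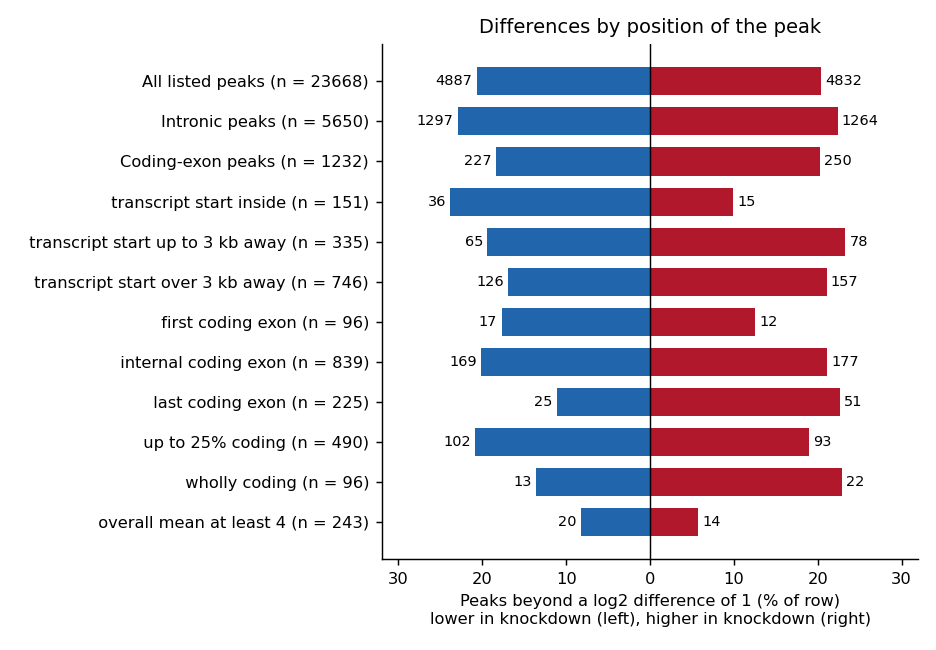
Share of peaks in % (x axis) with a log2 difference beyond 1, lower after knockdown to the left in blue and higher to the right in red, with the number of peaks at each bar, for all listed peaks, intronic peaks, coding-exon peaks and parts of the latter (rows). Coding-exon peaks with a transcript start inside have 36 lower and 15 higher peaks, those over the last coding exon 25 and 51, and strong peaks short bars on both sides.

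Differences beyond the limit were more frequent at low overall means. Of 235 coding-exon peaks with an overall mean below 2.5, 42 were lower and 86 higher, whereas of 66 with an overall mean of 5 and over, 0 were lower and 1 was higher. In all, 54.5% of the peaks below 2.5 were beyond the limit, 45.8% of those from 2.5 to 3, 38.9% from 3 to 4, 18.6% from 4 to 5 and 1.52% at 5 and over. Among all listed peaks the shares in the same bands were 54.5%, 46.7%, 37.3%, 20.9% and 4.26%. The decline was thus not particular to coding-exon peaks. For coding-exon peaks, the lower and upper quartiles of the differences were at -0.69 and 1.73 below 2.5 and at -0.40 and 0.27 at 5 and over. The surplus of higher values below 2.5 depended on the weighting of the overall mean. With both groups weighted equally, 57 of 233 peaks below 2.5 were lower and 68 higher, and the median difference moved from 0.24 to -0.03.

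In 70 coding-exon peaks (5.68%) a group mean was listed at 0, the lowest value in the deposited table. Such a value stood for at most 1 normalized read. Among all listed peaks, 1571 (6.64%) had a group listed at 0, so the share was near that background. In the coding-exon peaks the knockdown was listed at 0 in 31 and the control in 39, and no fold is given for them. Where the knockdown was at 0 the control mean ran from 2.27 to 4.68. The highest were in Topaz1 of the male germ line (4.68) and Prdm1, a transcriptional repressor active in B lineage and germ cells (4.63). The next were Sipa1, a GTPase activator (4.17), and Gfi1b of blood formation (3.94). Where the control was at 0 the knockdown mean ran from 2.52 to 4.22, with the highest in Heatr5a (4.22), Ccdc33 (4.12), the embryonic myosin gene Myh3 (4.05) and the kinase gene Pak6 (3.97).

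Chromosome X held 33 coding-exon peaks in 27 genes, of which 13 were lower (39.4%) and 5 higher (15.2%), with a median difference of -0.31. Of all 660 listed peaks on chromosome X, 156 were lower (23.6%) and 121 higher (18.3%), with a median difference of -0.08. The shares also varied between other chromosomes. On chromosome 16, 1 of 26 coding-exon peaks was lower (3.85%) and 10 were higher (38.5%), so an uneven share was not particular to X. With both groups above 0, 12 of 30 coding-exon peaks on X were lower and 3 higher. The largest falls with both groups above 0 were in Taf1, a subunit of TFIID (4.08 in the control, 0.64 in the knockdown), and Prrg3 (3.55 and 0.43), which were named after their values were seen. Litters were of mixed sex, and the sex of the cells behind each library was not given, so its part was not tested.

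Set beside other peaks away from gene starts, coding-exon peaks had a higher median overall mean and smaller shares beyond the limit, without a test. Intronic peaks of the same width limit and distance, 5650 in number, had a median overall mean of 2.77, and 23.0% were lower and 22.4% higher. Intergenic peaks, 9019 in number, had 2.81, and 22.4% were lower and 22.1% higher. Narrow peaks within 1 kb of a protein-coding gene start, 2266 in number, had a median overall mean of 3.56, and 14.8% were lower and 16.9% higher. The order of these shares followed the order of the median overall means, so that position and strength cannot be told apart in them. At the edges of the rule, the 63 peaks just inside the distance limit (up to 3.5 kb) had a median difference of 0.11, and the 83 just outside (2.5 to 3 kb) had -0.25. Within 200 bp of the width limit, the 20 peaks inside had a median difference of -0.17 and the 9 outside had -0.16.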

How the data were processed

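H3K27me3 was measured by ChIP-seq with an antibody against H3K27me3. According to the methods of the study, single-end reads of 50 bases were mapped to mm10 with bowtie2, broad peaks were called with MACS2 at a q-value below 0.1, and the authors compared groups with DiffBind and its DESeq2 option. Versions, normalization, duplicate removal and input subtraction are not given in the sources used here. The authors deposited, for each peak, an overall log2 mean of the normalized reads and the log2 mean of each group. These 3 columns were used here. The deposited table also holds the authors' own fold changes, p-values and FDR, which were not used.

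Peaks were placed on GENCODE M21 (GRCm38), and 23642 of 23668 lay on the chromosomes of that build. A peak was assigned to the protein-coding gene with the most coding bases in it. Exon numbers refer to coding exons of the transcript with the longest coding sequence. Peaks were named by rule: the 10 with the highest overall mean, the 8 largest differences in each direction among strong peaks with both means above 0, the 4 highest in each direction with a group listed at 0, the genes with the most peaks (8, or 10 with ties), and in each gene list the 2 strongest and, with both means above 0, the 1 with the largest difference. One item that the rule names is not reported here. The members, gene lists and limits were chosen with earlier results of these data known. Overlap and distance routines were tested on simulated data. Scripts ran under Python 3.11.15 with pandas 2.3.3, numpy 2.4.6 and SciPy 1.17.1.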

Additional observations from a re-analysis of the deposited data

How the results depend on the processing

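No paired analysis was possible because only group means were used, without values per library, and no replicate could be left out for the same reason. The counts and the median were recomputed under 8 alternatives, and the strong counts under a further one, equal weights, chosen after seeing the data. Of 45 values, 21 stayed within 1.5 times the main count, or inside the 95% interval of the median (-0.06 to 0.09), and 24 did not. That interval was taken from the order of the 1232 peaks, which share the same libraries. It measures no spread between replicates and serves only as a yardstick here. Most of the 24 are smaller counts because fewer peaks enter. With a log2 difference beyond 2, 81 peaks were lower and 108 higher, and 3 and 2 among strong peaks. More than 10 kb from gene starts (649 peaks), 120 were lower, 142 higher and 44 listed at 0, and 7 and 2 of the strong ones were lower and higher. More than 3 kb from transcript starts (746), these were 126, 157, 46, 6 and 5. With at least 50% coding sequence (360), these were 55, 79, 19, 1 and 4. At 500 bp or wider (577), 97 were lower, 83 higher and 7 listed at 0. Among strong peaks the surplus of lower ones turned with at least 50% coding sequence, and among all coding-exon peaks the surplus of higher ones turned at 500 bp or wider. The median difference moved to 0.157 with at least 50% coding sequence and to -0.065 at 500 bp or wider. The cause was not tested. Peaks of few reads and group means without spread limit every value.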
